A study of Mus musculus with 6 samples.

Results

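Type I interferon-stimulated genes (ISGs), the genes that cells switch on after sensing type I interferon, were followed in Lewis lung carcinoma tumors of mice after photodynamic treatment. The 38 genes were taken from a list of known ISGs, chosen with earlier results of these data known, and matched by symbol to the expression table. Of these, 36 were found among 21899 listed genes. All 36 passed the filter of a mean of at least 1 FPKM (fragments per kilobase of exon, scaled to the total of the sample), as 10853 genes did. Mx1 and Mx2 are not analysed here. The tumors were grown from LLC-luc cells, a luciferase-labelled line of Lewis lung carcinoma, injected under the skin near the left axilla of male C57BL/6 mice. The Laser group was irradiated after saline, without a photosensitizer. The PC-La group received phycocyanin (PC), a light-absorbing protein of Spirulina platensis, before the light, and in the SePC-La group the injected protein was phycocyanin enriched in selenium (Se-PC). Every sample came from an irradiated tumor, so a comparison with unlit tissue was not made. Each group had 2 samples. The labels give 620 nm light for 10 min, 4 h after each injection, and an injection every 5 days. The study's methods give another wavelength and interval. The labels do not say that the samples came from separate animals, so the p-values measure only the spread between these samples, which may be technical.

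Type I interferons bind the receptor pair IFNAR1 and IFNAR2, which activates the kinases JAK1 and TYK2. These phosphorylate STAT2, which acts with IRF9 in a complex named ISGF3 that binds the interferon-stimulated response element (ISRE) in front of its target genes. The products include sensors of foreign or misplaced nucleic acid, transcription factors that amplify the response, and effectors that block viral replication. In tumors, both cancer cells and the immune and stromal cells around them can carry the response, and a whole-tissue measurement does not say which of them do.

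The ISRE was looked for in the promoters of the members, because ISGF3 acts through it. RefSeq promoter windows (250 bases before to 50 bases after the start site, build GRCm38.p6) matched 28 of the 36 genes, in 31 windows. The letters searched were GAAANNGAAA on both strands (TTTCNNTTTC on the other), with overlapping matches counted. The motif was in 12 of the 31 windows (38.7%), against 3.44% of all 32851 windows and 3.29% of the windows of tested genes. The gamma-activated site, searched as TTCNNNGAA, which reads the same on both strands, was in 16.1% of the members' windows and 8.3% of all windows. The 12 genes with an ISRE match were Bst2, Ddx58, Ifih1, Ifit1, Ifit3, Ifit3b, Isg15, Oas1a, Oas1g, Oas3, Rsad2 and Stat2. The 8 stretches printed here belong to the IFIT, ISG15 and OAS genes, to the effector Rsad2 and to Stat2. They lie in front of the start site, with the ISRE matches in capitals and up to 20 bases on either side.
Ifit1: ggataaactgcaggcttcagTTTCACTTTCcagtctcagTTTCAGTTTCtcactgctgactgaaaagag
Ifit3: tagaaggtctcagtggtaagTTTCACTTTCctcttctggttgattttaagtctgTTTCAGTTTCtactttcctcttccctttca
Ifit3b: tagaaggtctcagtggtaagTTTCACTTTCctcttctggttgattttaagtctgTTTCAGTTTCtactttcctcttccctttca
Isg15: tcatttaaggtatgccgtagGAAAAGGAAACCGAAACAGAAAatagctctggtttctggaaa
Oas1a: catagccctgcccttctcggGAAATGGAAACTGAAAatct
Oas1g: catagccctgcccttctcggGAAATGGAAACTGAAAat
Rsad2: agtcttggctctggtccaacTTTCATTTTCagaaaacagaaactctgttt
Stat2: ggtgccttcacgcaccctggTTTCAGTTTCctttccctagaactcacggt
The stretches lie at chr19:34640765-34640833 on the plus strand (Ifit1), chr19:34583353-34583436 on the plus strand (Ifit3), chr19:34607749-34607832 on the plus strand (Ifit3b), chr4:156200855-156200916 on the minus strand (Isg15), chr5:120907526-120907565 on the minus strand (Oas1a), chr5:120887614-120887651 on the minus strand (Oas1g), chr12:26456543-26456592 on the minus strand (Rsad2) and chr10:128270256-128270305 on the plus strand (Stat2). Isg15 held 3 overlapping matches in a single run. Ifit3 and Ifit3b had the same letters over all 84 bases of the stretch, and the Oas1a and Oas1g stretches shared the run that holds their 2 overlapping matches. A match describes the letters only, and binding was not measured.

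Several members are neighbours on the chromosome. Ifit2, Ifit3, Ifit3b and Ifit1 lie in this order on chromosome 19 (GRCm38, 34550694 to 34650009), and Oas2, Oas3, Oas1g and Oas1a lie together on chromosome 5. Rsad2 and Cmpk2 stand head to head on chromosome 12 with 12751 bases between them. Dtx3l and Parp9 on chromosome 16 overlap head to head in 458 exon bases. Near-identical copies make some values uncertain. Of all stretches of 100 bases in the transcripts of Oas1a, 40.9% also occur in Oas1g, and 27.4% of those of Ifit3b also occur in Ifit3. Whether the counting used strand is not given in the sources used here, so reads in the shared exons of Dtx3l and Parp9 cannot be told apart.

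Levels differed widely between members. Bst2 (tetherin, which holds budding virus particles on the cell surface) had the highest mean over the 6 samples, 147.1 FPKM. Lgals3bp, a secreted glycoprotein, followed with 48.4 FPKM, and Irf1, a transcription factor that also answers to interferon gamma, with 38.9 FPKM. The lowest means were those of the RNA sensor gene Ifih1 at 2.23 FPKM and of Ifit3b at 2.51 FPKM. Between 21 and 2719 reads lay behind a member's value in a sample, for the 34 members whose values gave whole reads. The fitted totals of the samples were 14447792 to 17649489 reads.

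The members were highest in the PC-La samples. Their summed level was 539 and 389 FPKM under Laser, 773 and 773 under PC-La and 567 and 654 under SePC-La. For 24 of the 36 members, both PC-La samples lay above all 4 other samples, a pattern that 14.9% of all tested genes had. The exceptions were Irf1, Oas2, Oas3, Oasl1, Isg15, Usp18, Trim25, Rsad2, Cmpk2, Bst2, Rtp4 and Ifi35. Laser replicate 2 was the lowest sample for 31 of the 36 members. Within the Laser group it stood below replicate 1 for 33 of 36 members, by a median of 0.46 on the log2 scale, while 53.2% of all tested genes were lower in it. The median absolute difference between replicates was 0.47 on the log2 scale for the members under Laser, 0.10 under PC-La and 0.30 under SePC-La, against 0.23, 0.11 and 0.19 for all tested genes. In SePC-La replicate 2 was the lower for 5 of the 36 members, and in PC-La for 16. In whole tumors, fewer cells of a type and less RNA per cell cannot be told apart.

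**Figure D1:**
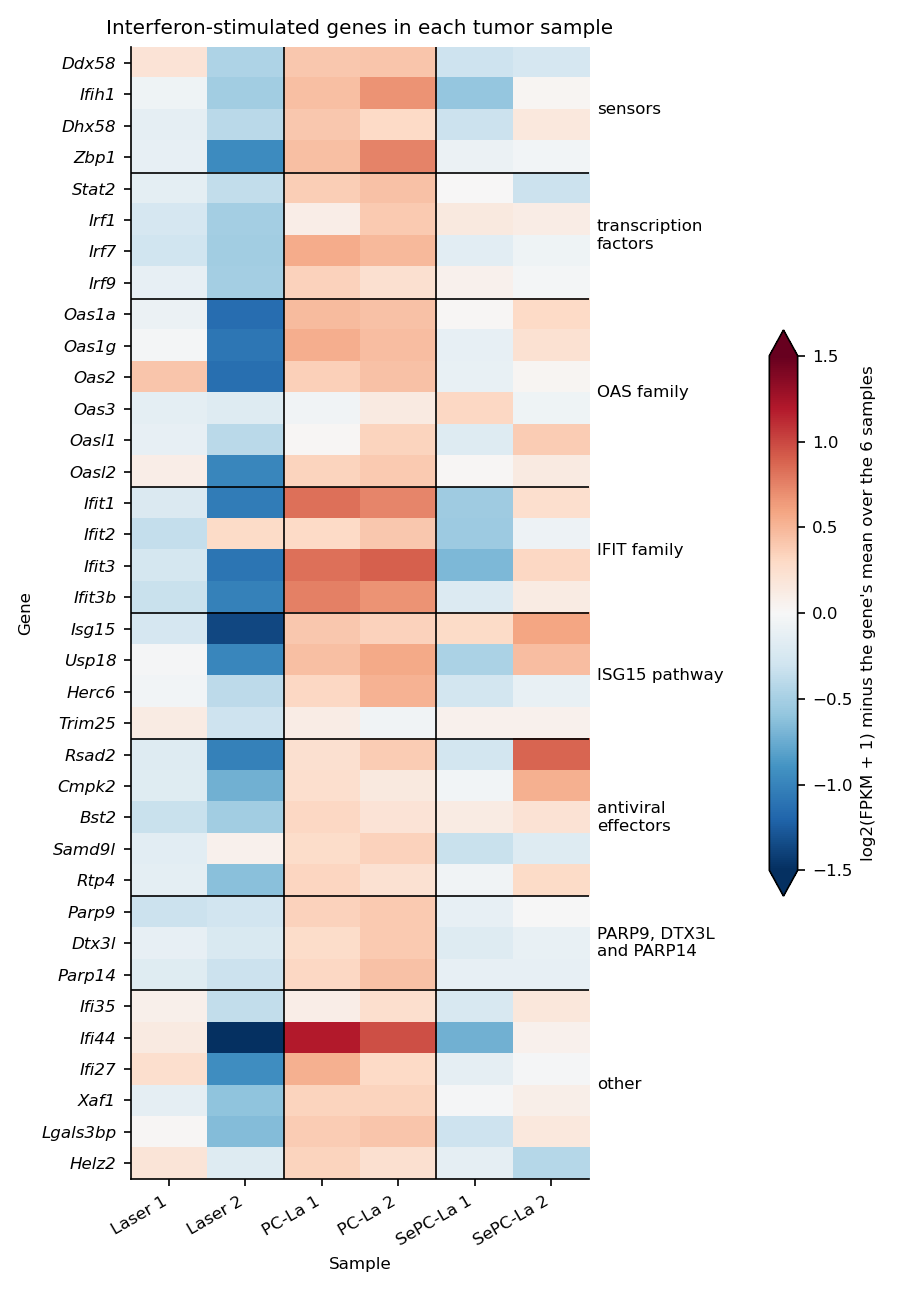
Heat map of the 36 interferon-stimulated genes (rows, grouped by role) in the 6 samples (columns). The color gives log2(FPKM + 1) minus the gene's mean over the 6 samples, and colors beyond 1.5 in either direction are capped. The PC-La columns are mostly red and Laser 2, the lowest sample for 31 of the 36 genes, is mostly blue.

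PC-La was first compared with Laser, which asks what PC added to the light. Of the 36 members, 25 were higher in PC-La at an unadjusted p under 0.05 by limma and 0 were lower, while 3.38% of all tested genes were higher and 2.4% lower by the same rule. The differences were positive for all 36 members, with a median of 0.68 on the log2 scale of FPKM + 1, on which low genes are understated, against a median near 0 for all tested genes. Both PC-La samples lay above both Laser samples for 34 of the 36 members, all but Oas2 and Trim25, and for 20.4% of all tested genes. By the criterion of the study, an absolute log2 fold change over 1 with an unadjusted p under 0.05, 8 members were higher, against 0.866% of tested genes. These were Ifit1, Ifit3, Ifit3b, Isg15, Zbp1, Oas1a, Oas1g and Ifi44. After Benjamini-Hochberg adjustment over all genes no gene passed 0.05 (0.0% of tested genes), and the smallest adjusted p of a member was 0.406 by limma. The same count was 0 with limma voom on recovered reads. Here and for single genes, a gene passed where its unadjusted p was under 0.05, and the p printed is the adjusted one.

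The counts depended on single samples. Without Laser replicate 2, the lowest sample, 20 members passed at an unadjusted p under 0.05, as did 3.69% of all tested genes in either direction, 2 met the criterion, and the median was 0.50. Without Laser replicate 1, the median was 0.91. Without PC-La replicate 1 the numbers were 14 and 4 (2.42% of all tested genes passed), and without PC-La replicate 2 they were 12 and 3 (1.88%). The members called were higher in PC-La in each of these fits. In such fits the lone sample is assumed to vary like the other groups. The 36 differences stayed positive in each of them except the fit without Laser replicate 2, where 34 were positive.

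SePC-La was then compared with the same Laser samples. Of the 36 members, 6 were higher at an unadjusted p under 0.05 by limma, namely Bst2, Isg15, Irf1, Cmpk2, Rtp4 and Ifit3b, and 0 were lower. Among all tested genes, 4.9% were higher and 7.24% lower. The median difference was 0.33, with 32 members positive. The criterion of the study was met by 1 member, Isg15 (0.544% of tested genes were higher by it). Both SePC-La samples were above both Laser samples for 14 members (15.0% of tested genes) and below them for 1, Samd9l (25.6%). The smallest adjusted p of a member was 0.376 by limma, and 0.0% of tested genes had an adjusted p under 0.05. This comparison depended on Laser replicate 2: without it the median was 0.06, 22 members were positive, and 5 passed at an unadjusted p under 0.05, 2 of them higher and 3 lower. In that fit 19.5% of all tested genes passed in either direction, a larger share than among the members. Without Laser replicate 1, 21 members were higher and 1 was lower, 7 met the criterion, the median was 0.60, and 16.2% of all tested genes passed. Without SePC-La replicate 1, 7 members were higher and 2 met the criterion, while 7.63% of all tested genes passed. Without SePC-La replicate 2, 3 were higher and 0 met the criterion, while 11.7% of all tested genes passed, again a larger share than among the members. Without PC-La replicate 1 or without PC-La replicate 2, 3 members were higher (6.42% and 6.39% of all tested genes passed), since the spread is shared between the groups.

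SePC-La was also compared with PC-La directly, which asks how the selenium-enriched protein differed from the plain protein at the same dose by the study's methods. At an unadjusted p under 0.05 by limma, 15 of the 36 members were lower in SePC-La and 0 were higher. This comparison called many genes, and 14.4% of all tested genes were lower and 9.91% higher. The median difference of the members was -0.46, against -0.07 for all tested genes. Both SePC-La samples lay below both PC-La samples for 25 members and for 39.5% of tested genes. By the criterion of the study 1 member was lower, Ifit3 (1.8% of tested genes). The smallest adjusted p of a member was 0.126 by limma, and 0.0% of tested genes had an adjusted p under 0.05. Without PC-La replicate 2, 2 members were lower, while 9.48% of all tested genes passed in either direction, a larger share than among the members. Without PC-La replicate 1 or SePC-La replicate 1, 7 were lower (8.07% and 11.5% of all tested genes passed). In these 3 fits 0 members met the criterion. Without SePC-La replicate 2, 12 were lower and 3 met it (23.5% of all tested genes passed). Without Laser replicate 1 or without Laser replicate 2, 21 were lower and 2 met it (33.5% and 33.4%). With only the PC-La and SePC-La samples in the fit, 21 members also passed. In that fit 33.4% of all tested genes passed in either direction at an unadjusted p under 0.05. At an adjusted p under 0.05 by limma, 4 members and 637 of the 10853 tested genes passed. Oas3, Trim25, Isg15 and Cmpk2 were the 4 members with a difference above 0.

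**Figure D2:**
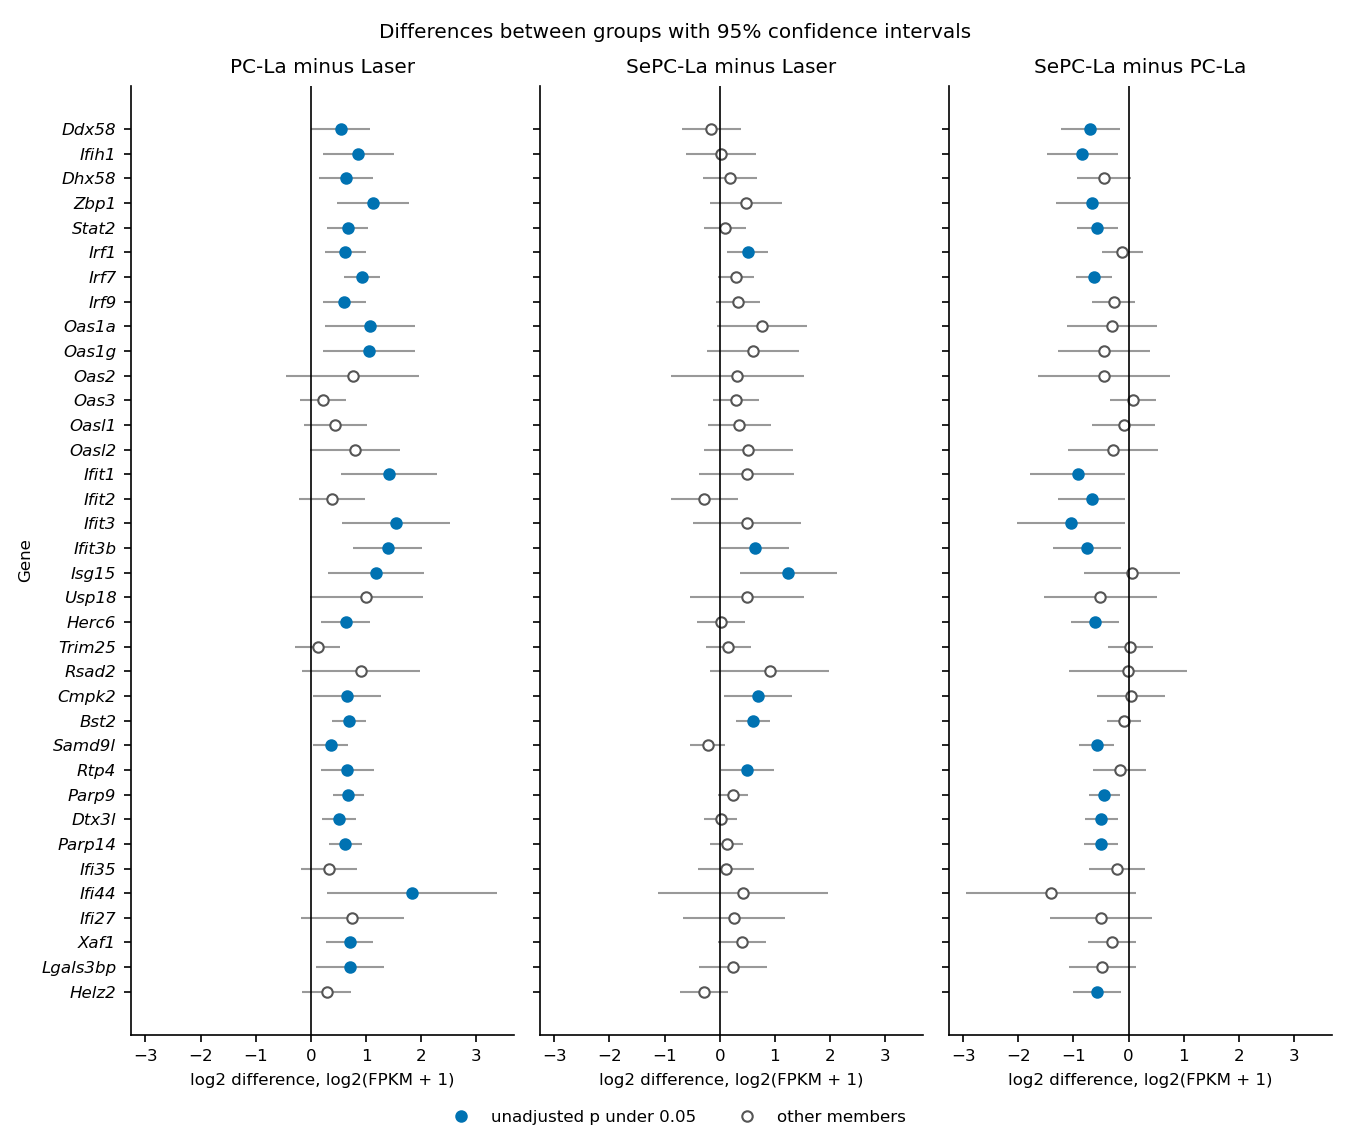
Differences of the 36 members between groups (points) with 95% confidence intervals (lines), on the log2(FPKM + 1) scale, for PC-La minus Laser, SePC-La minus Laser and SePC-La minus PC-La. Filled points have an unadjusted p under 0.05 by limma. All 36 points lie right of 0 in the first panel, and 15 filled points lie left of 0 in the last.

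The 4 sensors were all higher in PC-La than under Laser at an unadjusted p under 0.05. Zbp1, which recognizes nucleic acids in the Z form and can start necroptosis, stood at 16.9 and 9.22 FPKM under Laser, 25.8 and 31.8 under PC-La and 17.4 and 18.1 under SePC-La. The PC-La samples stood above all others. The log2 difference between PC-La and Laser was 1.13 (SE 0.27, adjusted p = 0.642 by limma). Between SePC-La and PC-La it was -0.66 (adjusted p = 0.204 by limma), a call that was lost when any PC-La or SePC-La sample was left out. Ddx58, which encodes the RNA sensor RIG-I, had 11.4 and 6.80 FPKM under Laser, 13.2 and 13.3 under PC-La and 7.69 and 8.01 under SePC-La. Ifih1, encoding the long-RNA sensor MDA5, had 1.93 and 1.15, 3.21 and 3.90, and 1.06 and 2.15 FPKM in the same order. Both were lower in SePC-La than in PC-La (adjusted p = 0.151 for each by limma). Dhx58 (LGP2, a regulator of those sensors) ranged from 2.65 to 5.44 FPKM, highest in PC-La.

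Among the transcription factors, all 4 were higher in PC-La than under Laser at an unadjusted p under 0.05. Irf7, the factor that amplifies interferon alpha production, had the smallest p of all members. It measured 8.05 and 6.75 FPKM under Laser, 15.3 and 14.6 under PC-La and 8.96 and 9.65 under SePC-La, so that the PC-La samples stood apart from the other 4. The log2 difference between PC-La and Laser was 0.93 (95% confidence interval 0.60 to 1.26, adjusted p = 0.406 by limma). SePC-La was lower than PC-La by a log2 difference of -0.63 (SE 0.14, adjusted p = 0.126 by limma) and exceeded Laser by 0.30 (95% confidence interval -0.03 to 0.62). The calls of PC-La against Laser and of SePC-La against PC-La held with each sample left out in turn. Stat2, which encodes a subunit of ISGF3, had 14.8 and 12.5 FPKM under Laser, 21.5 and 22.7 under PC-La and 16.5 and 13.0 under SePC-La. Its log2 difference was 0.66 between PC-La and Laser (SE 0.16, adjusted p = 0.628 by limma). Between SePC-La and PC-La it was -0.56 (adjusted p = 0.136 by limma), a call lost without PC-La replicate 2 or SePC-La replicate 2. Irf9, the DNA-binding part of ISGF3, ranged from 6.55 FPKM in a Laser sample to 12.7 in a PC-La sample.

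Irf1 followed another pattern. It stood at 31.8 and 26.5 FPKM under Laser, 40.9 and 50.3 under PC-La and 42.4 and 41.2 under SePC-La. Both photosensitizer groups lay above Laser, with log2 differences of 0.62 for PC-La (SE 0.15, adjusted p = 0.644 by limma) and 0.51 for SePC-La (adjusted p = 0.376 by limma). The first call was lost without PC-La replicate 2, and the second without Laser replicate 2 or SePC-La replicate 1. SePC-La minus PC-La was -0.12 on the log2 scale (95% confidence interval -0.49 to 0.26), and the groups overlapped.

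The IFIT genes, whose products bind viral RNA and hold back its translation, had the largest median difference of the 8 role groups, 1.40 on the log2 scale between PC-La and Laser, and 3 of the 4 were higher at an unadjusted p under 0.05. Ifit1 had 8.81 and 4.50 FPKM under Laser, 19.3 and 17.9 under PC-La and 6.85 and 12.6 under SePC-La. Both PC-La values exceeded all others, and the log2 difference from Laser was 1.41 (SE 0.35, adjusted p = 0.661 by limma). SePC-La was lower than PC-La by a log2 difference of -0.92 (adjusted p = 0.191 by limma), a call lost without either PC-La sample or without SePC-La replicate 1. Ifit3 had 10.6 and 5.55 FPKM under Laser, 23.7 and 25.0 under PC-La and 7.77 and 16.3 under SePC-La. This was a 3.01-fold ratio of the mean FPKM of PC-La to that of Laser. Ifit3b, its near-identical neighbour, had 1.56 and 0.595 FPKM under Laser, 4.45 and 4.14 under PC-La and 1.80 and 2.52 under SePC-La. The log2 difference of Ifit3b was 1.39 between PC-La and Laser (SE 0.26, adjusted p = 0.430 by limma), 0.64 between SePC-La and Laser (adjusted p = 0.407 by limma) and -0.75 between SePC-La and PC-La (adjusted p = 0.164 by limma). The last 2 calls were lost when single samples were left out. Ifit2 differed from its neighbours under Laser, with 10.9 and 17.5 FPKM there, 17.6 and 19.0 under PC-La and 9.38 and 13.4 under SePC-La. Its Laser replicate 2 was the higher of the pair, and PC-La minus Laser was 0.38 (95% confidence interval -0.23 to 0.99).

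**Figure D3:**
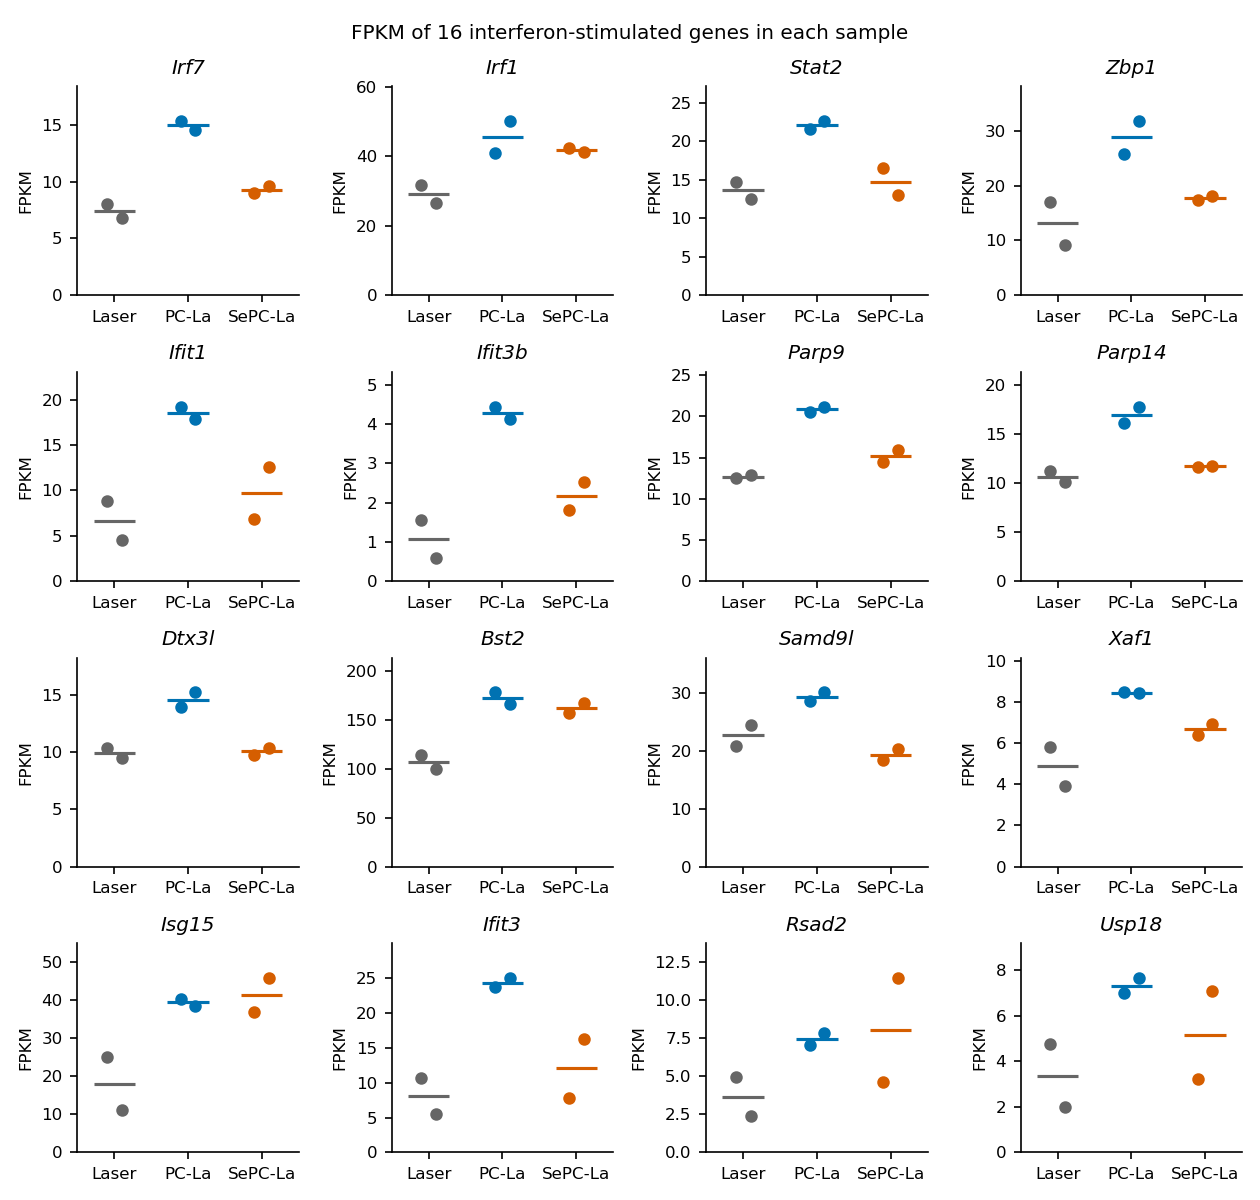
FPKM of 16 interferon-stimulated genes in each sample (points, 2 per group), with the group mean as a bar and every axis starting at 0. For Irf7 both PC-La values, 15.3 and 14.6, stand above all others, while for Irf1, Bst2 and Isg15 the SePC-La values lie near those of PC-La.

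The OAS genes encode enzymes and related proteins that react to double-stranded RNA. Of 6 members, 2 were higher in PC-La than under Laser at an unadjusted p under 0.05, Oas1a and Oas1g, which share sequence. Oas1a had 10.1 and 4.36 FPKM under Laser, 15.4 and 15.0 under PC-La and 10.9 and 13.5 under SePC-La. The wide gap within the Laser group recurred in Oas2, with 9.78 and 2.69 FPKM under Laser, 9.39 and 9.97 under PC-La and 6.49 and 7.23 under SePC-La. The groups of Oas2 overlapped. Oas3 was flat by comparison, between 3.50 and 5.38 FPKM in all samples. No OAS gene passed in either comparison with SePC-La.

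Isg15 encodes a ubiquitin-like protein that is attached to other proteins. It stood at 25.1 and 11.1 FPKM under Laser, 40.3 and 38.5 under PC-La and 36.9 and 45.8 under SePC-La. Both photosensitizer groups lay above Laser, with log2 differences of 1.18 for PC-La (adjusted p = 0.753 by limma) and 1.24 for SePC-La (adjusted p = 0.376 by limma). Their difference from each other was 0.06 (95% confidence interval -0.81 to 0.94). Usp18, which removes ISG15 from proteins and dampens receptor signalling, had 4.77 and 1.97 FPKM under Laser, 6.97 and 7.64 under PC-La and 3.20 and 7.08 under SePC-La, with SePC-La spread over most of the range. Herc6, the mouse enzyme that attaches ISG15, ranged from 1.87 to 4.38 FPKM and was highest in PC-La. Trim25, a ubiquitin ligase that activates RIG-I, stayed between 16.7 and 22.9 FPKM in all samples.

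Antiviral effectors divided by how SePC-La compared with PC-La. Bst2 had 113.9 and 99.9 FPKM under Laser, 178.4 and 166.4 under PC-La and 157.1 and 167.0 under SePC-La. Both photosensitizer groups lay above Laser, with log2 differences of 0.69 for PC-La (SE 0.13, adjusted p = 0.430 by limma) and 0.60 for SePC-La (adjusted p = 0.376 by limma), and both calls held with each sample left out in turn. The difference between the photosensitizer groups was -0.09 (95% confidence interval -0.40 to 0.22). Samd9l, an antiviral factor, went the other way in SePC-La. It had 20.9 and 24.6 FPKM under Laser, 28.6 and 30.1 under PC-La and 18.4 and 20.4 under SePC-La. SePC-La was lower than PC-La by a log2 difference of -0.58 (SE 0.13, adjusted p = 0.126 by limma), in every fit with a sample left out. PC-La minus Laser was 0.36 (adjusted p = 0.753 by limma), a call lost without Laser replicate 1 or either PC-La sample.

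The neighbours Rsad2 (viperin, which makes a chain-terminating nucleotide) and Cmpk2 (a kinase that makes its precursor) were highest in SePC-La replicate 2. Rsad2 had 4.95 and 2.37 FPKM under Laser, 7.03 and 7.83 under PC-La and 4.65 and 11.4 under SePC-La. For Cmpk2 the values were 3.42 and 2.04, 4.96 and 4.56, and 3.87 and 6.22 FPKM. The SePC-La samples of both genes straddled the PC-La samples. Rtp4, a receptor-transporter gene, ranged from 10.1 FPKM in a Laser sample to 20.4 in a PC-La sample.

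Parp9, Dtx3l and Parp14 encode ADP-ribosyltransferases and a ubiquitin ligase that enhance interferon signalling. All 3 were higher in PC-La than in Laser and lower in SePC-La than in PC-La at an unadjusted p under 0.05. Parp9 had 12.6 and 12.8 FPKM under Laser, 20.6 and 21.2 under PC-La and 14.5 and 15.9 under SePC-La. The Laser samples were close for this gene, unlike most members, and the log2 difference was 0.68 (SE 0.12, adjusted p = 0.419 by limma). Parp14 had 11.2 and 10.1 FPKM under Laser, 16.1 and 17.8 under PC-La and 11.6 and 11.7 under SePC-La. Its log2 difference between PC-La and Laser was 0.63 (SE 0.13, adjusted p = 0.450 by limma). Dtx3l had 10.3 and 9.50 FPKM under Laser, 13.9 and 15.2 under PC-La and 9.74 and 10.4 under SePC-La, and PC-La minus Laser was 0.51 (adjusted p = 0.642 by limma), lost without PC-La replicate 2. SePC-La minus PC-La was -0.44 for Parp9, -0.50 for Parp14 and -0.49 for Dtx3l (adjusted p = 0.134, 0.126 and 0.128 by limma). Each of these 3 calls was lost without PC-La replicate 2, and that of Parp9 also without replicate 1.

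Of the remaining members, Xaf1, a promoter of apoptosis, had 5.82 and 3.94 FPKM under Laser, 8.46 and 8.41 under PC-La and 6.41 and 6.94 under SePC-La. PC-La minus Laser was 0.70 (SE 0.18, adjusted p = 0.650 by limma). Ifi44 had the largest log2 difference of any member between PC-La and Laser, 1.83 (SE 0.61, adjusted p = 0.753 by limma), with 5.05 and 0.758 FPKM under Laser, 11.6 and 9.76 under PC-La and 2.33 and 4.77 under SePC-La. Its Laser samples were far apart. Lgals3bp had 47.3 and 29.6 FPKM under Laser, 61.1 and 62.6 under PC-La and 37.5 and 52.4 under SePC-La, and Ifi27 ranged from 18.1 to 51.6 FPKM. Helz2, a helicase gene, was lowest in SePC-La replicate 2 at 4.93 FPKM.

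Members with and without an ISRE match in the promoter window were set side by side as a description. Between PC-La and Laser the median log2 difference was 0.98 for the 12 with a match and 0.62 for the 16 without, and 10 members of each passed at an unadjusted p under 0.05. Between SePC-La and PC-La the medians were -0.51 and -0.39. The split was not tested.

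The interferon genes themselves were at the edge of detection. Of 21 ligand genes, 13 were listed at 0 in every sample. Over all 6 samples, 19 reads fell on the 18 type I interferon genes, with at most 3 on 1 gene in 1 sample. Ifnb1, the interferon beta gene, had 2 reads in PC-La replicate 1, 1 in SePC-La replicate 2 and 0 elsewhere. A difference in ligand expression was not detectable from so few reads, and sequence shared between the ligand genes was not examined. Ifng, which encodes interferon gamma, lay between 0.737 and 0.973 FPKM in all samples, from 14 to 22 reads.

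The type I receptor genes Ifnar1 and Ifnar2 ranged from 9.32 to 15.1 and from 6.20 to 10.5 FPKM, and the kinase genes Jak1 and Tyk2 from 34.9 to 44.8 and from 5.58 to 8.44 FPKM. None of these 4 passed in any comparison, nor did the other receptor and kinase genes tested, Ifngr1, Ifngr2, Il10rb and Jak2.

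Among upstream sensors and adaptors, 3 of 11 tested were higher in PC-La than in Laser and the same 3 were lower in SePC-La than in PC-La. The shares of all tested genes in these directions were 3.38% and 14.4%. They were Tlr3 and Tlr9, receptors for RNA and DNA in endosomes, and the factor Irf5. Tlr3 measured 2.49 and 1.78 FPKM under Laser, 3.76 and 3.98 under PC-La and 1.34 and 2.01 under SePC-La. Tlr9 measured 1.63 and 1.12, 2.54 and 3.09, and 1.51 and 1.04 FPKM in the same order. Irf5, with 11.7 and 11.2, 15.6 and 20.1, and 10.7 and 11.7 FPKM, was likewise highest in both PC-La samples. The receptor adaptor genes Myd88, Ticam1 and Mavs, and the kinase gene Tbk1, did not pass. Of 9 negative regulators, 2 passed in PC-La against Laser, 2 in SePC-La against Laser (4.9% of all tested genes were higher) and 3 in SePC-La against PC-La. Ptpn6 and Rnf125 were higher in PC-La than in Laser, and Socs1 and Socs3, feedback inhibitors of cytokine signalling, were higher in SePC-La than in Laser. Socs3 had 69.5 and 36.9 FPKM under Laser, 64.2 and 60.8 under PC-La and 77.3 and 91.7 under SePC-La. Unlike most members, Socs3 was highest in the SePC-La samples. Pias1, Adar and Rnf125 were lower in SePC-La than in PC-La.

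A further 50 interferon-inducible genes outside the members were listed, also with earlier results known, and 48 of them were past the filter. Between PC-La and Laser 26 of the 48 were higher and 0 lower at an unadjusted p under 0.05 (3.38% and 2.4% of all tested genes), with a median log2 difference of 0.61. Igtp, a GTPase gene induced by interferon gamma, had 45.7 and 56.7 FPKM under Laser, 99.9 and 106.7 under PC-La and 88.2 and 85.5 under SePC-La. Cxcl9, a chemokine gene that draws T cells, had 32.7 and 42.6, 77.8 and 129.0, and 44.6 and 65.5 FPKM. Between SePC-La and Laser 11 of the 48 were higher and 1 lower (4.9% and 7.24% of all tested genes). The 11 included Tap1 and Psmb9 of antigen processing and the membrane restriction factors Ifitm1 and Ifitm3. Between SePC-La and PC-La 14 were lower, Cxcl9, Iigp1 and Parp12 among them, and 2 were higher, Ifitm1 and Daxx. Among all tested genes 14.4% were lower and 9.91% higher, so the share of the list that was higher lay below that of all genes.

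Cell type markers were read in the same samples. Of the lung epithelium markers behind the label lung cancer tissue, Scgb1a1 and Nkx2-1 were listed at 0 in all samples. Sftpc, Sftpb and Sftpa1 did not exceed 0.369 FPKM. Ager, the only lung epithelium marker past the filter, ranged from 0.679 to 1.37 FPKM. The keratin gene Krt8 ranged from 78.1 to 113.9 FPKM and Epcam did not exceed 0.129. The summed level of 5 fibroblast markers was 941 and 248 FPKM under Laser, 1299 and 1170 under PC-La and 95.3 and 531 under SePC-La. The sum was highest in PC-La, as that of the members was, and Col3a1 and Dcn made up most of it. Col1a1 and Col1a2 were highest in SePC-La replicate 2, at 23.2 and 10.1 FPKM. The 8 macrophage markers summed to 657 and 702, 900 and 957, and 388 and 730 FPKM, also highest in PC-La. C1qa, C1qb and C1qc made up most of this sum, while Mrc1 measured 26.7 and 29.7 FPKM under Laser, 14.4 and 14.3 under PC-La and 10.3 and 29.5 under SePC-La, and Cd68 was lower on average in PC-La than under Laser. The 5 dendritic cell markers summed to 11.7 and 4.10, 15.8 and 22.8, and 9.99 and 9.49 FPKM, of which Itgax made up most. T cell markers summed to 3.08 FPKM under Laser replicate 2 and 3.28 in SePC-La replicate 1, and to between 8.78 and 10.4 in the others. The 6 neutrophil markers followed another order, with 331 and 435 FPKM in SePC-La and 31.9 to 148 in the other samples. Skeletal muscle markers summed to 19.0 and 124 FPKM under Laser, 2.23 and 2.20 under PC-La and 1.48 and 5.90 under SePC-La. Both Laser samples thus lay above all others. Of the plasmacytoid dendritic cell markers, Siglech did not exceed 0.652 FPKM and Ccr9 did not exceed 0.117, while Tcf4, which other cells also express, had 13.7 and 7.12 FPKM under Laser, 14.5 and 15.0 under PC-La and 4.33 and 7.67 under SePC-La. Spib did not exceed 0.396 FPKM, and Bst2, the last gene of that list, is itself a member. Ptprc, carried by leukocytes in general, had 7.66 and 3.92 FPKM under Laser, 8.86 and 10.8 under PC-La and 5.75 and 6.81 under SePC-La. The 5 natural killer (NK) cell markers summed to 10.0 and 15.9, 24.8 and 15.1, and 6.12 and 14.3 FPKM in the same order. Ncr1, Klrb1c, Klrk1 and Prf1 were highest in both PC-La samples, though Ncr1 and Klrb1c averaged below 1 FPKM. Gzma overlapped between the groups, with 16.7 and 6.18 FPKM in PC-La. The part of these cell types in the members' differences was not tested.

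**Figure D4:**
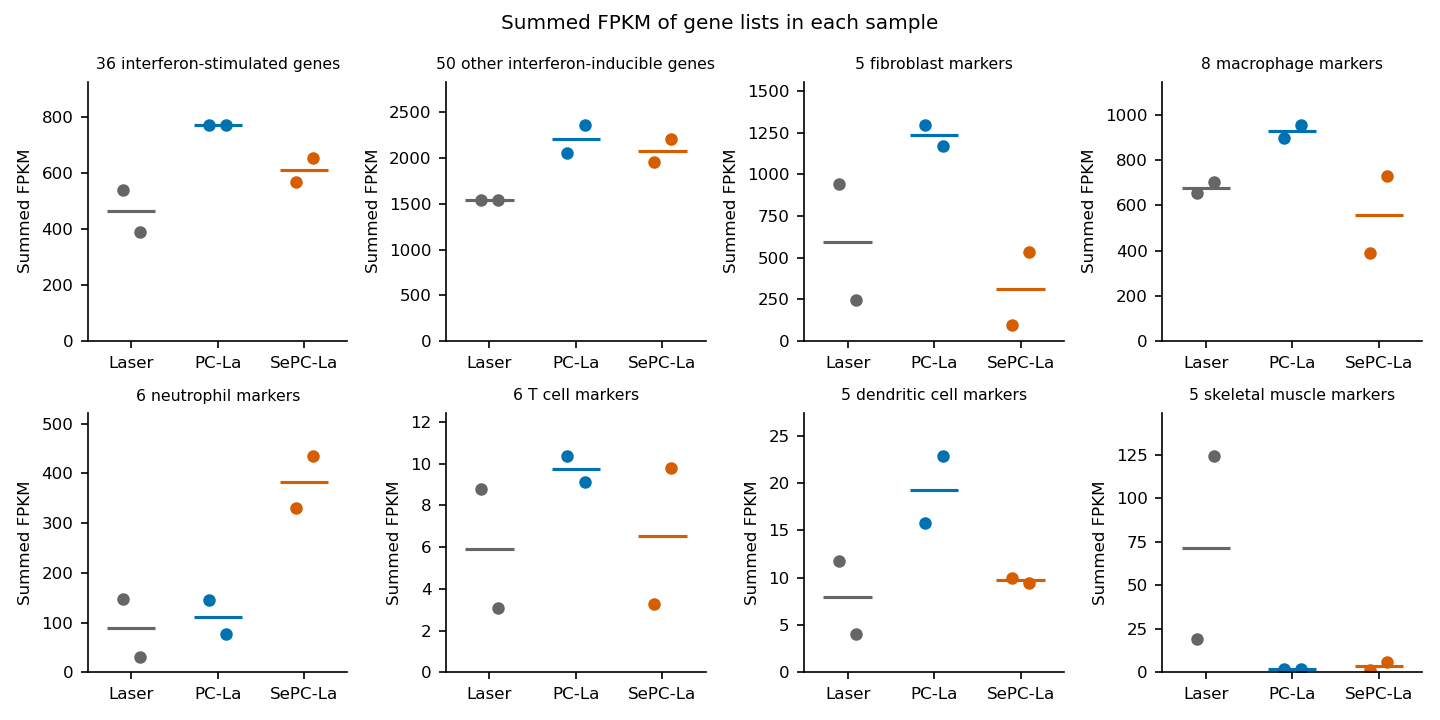
Summed FPKM of the 36 members, of the 50 other interferon-inducible genes and of 6 marker lists in each sample (points, 2 per group), with the group mean as a bar and every axis starting at 0. The members (773 and 773 FPKM in PC-La) and the fibroblast, macrophage and dendritic cell markers are highest in PC-La, the neutrophil markers in SePC-La.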

How the data were processed

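RNA sequencing was performed on 6 tumor samples, 2 per group, with groups taken from the labels. The authors deposited 1 table of FPKM values. Its unit was settled from the values: with GENCODE M21 exon lengths (GRCm38), all 6 values of 97.8% of expressed genes came out as whole reads, to within 0.02 of a read. The sample totals quoted are the fitted totals at which the values came out as whole reads. The submitters' processing notes name HISAT2 2.0.5, HTSeq 0.9.1, DESeq 1.30.0 and build mm9. The annotation is not given in the sources used here. The FPKM values were used as deposited, without further scaling.

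The values were tested on the log2(FPKM + 1) scale for genes averaging 1 FPKM or more, by limma 3.58.1 (R 4.3.3), with 1 mean per group, all samples in the fit and trend and robust moderation. This replaced the study's DESeq test, since FPKM are not counts. The Benjamini-Hochberg adjustment covered all 10853 tested genes. The script was tested on simulated data. The members and lists were chosen with earlier results of these data known. Every member could be named. Full statistics were kept for the 12 members with the smallest unadjusted p in any comparison, and values of other members (Isg15, Ifit3, Ifi44 and more) and of single genes outside them were picked after they were seen.

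The alternatives tried were a smaller pseudocount (0.1), keeping every gene or only those averaging 5 FPKM, scaling by median ratios, a fit with only the compared groups, a replicate block, limma voom on recovered reads (34 members, without Irf1 and Isg15, whose values were not whole reads), and each sample left out. Results of 1 gene of the pathway are not reported here. Promoter sequences came from RefSeq and gene positions and transcripts from GENCODE M21. Figures were drawn with Python and matplotlib. Precision is limited by 2 samples per group.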

Additional observations from a re-analysis of the deposited data

How the results depend on the processing

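The median difference of the members kept its direction in all 3 comparisons under every alternative run. Without a single replicate it ranged from 0.50 to 0.91 between PC-La and Laser, from 0.06 to 0.60 between SePC-La and Laser, and from -0.52 to -0.35 between SePC-La and PC-La. With each replicate left out, the members at an unadjusted p under 0.05 by limma ranged from 12 to 31, from 3 to 22 and from 2 to 21 in these comparisons, and those at the criterion of the study from 2 to 16, from 0 to 7 and from 0 to 3. The share of all tested genes that passed also moved between these fits. For PC-La against Laser this share was largest without Laser replicate 1, the fit at the top of that range. At the low ends of the ranges for the SePC-La comparisons, the share of all tested genes was near or above that of the members. For SePC-La against Laser, 11 members passed at an unadjusted p under 0.05 with median-ratio scaling and 3 with only the 4 compared samples, against 6. Of all tested genes, 11.8% passed with median-ratio scaling and 6.45% with only the 4 compared samples, in either direction. The criterion was met by 2 members with a pseudocount of 0.1, against 1. For SePC-La against PC-La, the criterion was met by 2 members with a pseudocount of 0.1, with only the 4 compared samples or with voom, and by 0 with median-ratio scaling, against 1. With the replicate block, given below, and the left-out samples set aside, the other counts stayed within 1.5 times. The cause of these shifts was not tested. Replicate numbers were shared between groups, and the labels do not say whether they pair the samples. Replicate differences correlated by 0.0862 between Laser and PC-La, by -0.428 between Laser and SePC-La and by -0.177 between PC-La and SePC-La. These correlations cannot decide it, since differences between single tumors enter them too. With the replicate block, 22, 3 and 12 members passed in the 3 comparisons, against 25, 6 and 15, and 0 met the criterion between SePC-La and PC-La. Of all tested genes, 4.16%, 8.64% and 18.7% passed with the block in either direction. For SePC-La against Laser the share among the members was thus no larger than among all tested genes. Of the values of the 12 members with full statistics, 144 of 144 kept their direction and 116 kept their call with a sample left out, and 163 of 163 and 153 under the other alternatives. The few reads on the interferon ligand genes did not allow them to be compared, and 2 samples per group limit every interval.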
